A study of Mus musculus with 24 samples.

Results

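The genes described here are 10 genes of the vascular endothelium, namely Klf2, Klf4, Sox17, Sox18, Pecam1, Cdh5, Kdr, Tek, Vwf and Aplnr. They were found among the 55401 genes of the count data by matching Ensembl identifiers to these symbols, and all 10 were present and passed the filter on low counts, which kept 12651 genes. The gastrocnemius, a leg muscle far from the wound, was taken from male C57BL6 mice 24 h after scald or sham treatment. Treatment was at 5 weeks of age in the young and at 11 weeks in the adults. Each age had 3 sham and 3 burned mice, called adult sham, adult burn, young sham and young burn below. All mice were anesthetized and given buprenorphine. Burned mice received a scald over 25% of the body surface and fluid resuscitation, and sham mice received neither, so the scald and the fluid cannot be told apart. Each mouse gave 1 poly-A RNA library and 1 small RNA library of whole muscle.

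The endothelium lines every blood vessel. Its cells are held together by the junction proteins encoded by Pecam1 and Cdh5, take up growth signals through receptors such as those encoded by Kdr, Tek and Aplnr, and store the clotting factor encoded by Vwf. Steady blood flow along the vessel wall induces Klf2 and Klf4, transcription factors that keep endothelial cells quiescent and limit clotting and inflammation, and Sox17 and Sox18 encode transcription factors of vessel identity and growth. In skeletal muscle most of the endothelium lies in the capillaries around the fibres, and oxidative fibres carry more capillaries than glycolytic ones.

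The mRNA libraries held 4392605 to 5688512 counts in genes, and the small RNA libraries 1704531 to 3149396 counts in miRNAs. In the mRNA data young burn replicate 2 stood apart. Its log2 levels correlated with the mean of the other young burn libraries at 0.945 across genes, against 0.973 to 0.988 for the other 11 libraries and their groups. The study leaves 1 young burn mouse out of 1 analysis and shows young burn replicates 1 and 3 there, so the fits below used 11 mRNA libraries, and values of young burn replicate 2 and calls that changed in the fit to all 12 are given with the results. Young burn is therefore a group of 2 libraries wherever a mean or a test is given without further remark. Levels are given in CPM, the count as a share of the library total after TMM scaling. The test was edgeR's quasi-likelihood test with Benjamini-Hochberg adjustment over all genes tested, and called genes are those with an adjusted p under 0.05.

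The muscle markers Acta1, Ckm, Myh4, Tnnt3 and Mylpf were abundant in every group, from group means of 5868 CPM for Ckm in young burn to 35520 CPM for Myh4 in young sham. The endothelial genes were far lower and lay close together. Per kilobase of exon, which allows genes to be compared, the level in adult sham was highest for Klf2, at 23.4 ± 2.99 CPM per kb (SD, n = 3). Cdh5 followed at 20.9 ± 0.878, Klf4 at 17.2 ± 2.49, Sox18 at 13.7 ± 0.666, Pecam1 at 11.8 ± 1.30 and Tek at 10.7 ± 0.916 CPM per kb. The lowest levels per kilobase were those of Kdr at 6.34 ± 0.535, Aplnr at 4.01 ± 0.790, Sox17 at 2.98 ± 0.611 and Vwf at 2.45 ± 0.110. The ranges over the adult sham libraries did not overlap between Cdh5 and Klf4, between Tek and Kdr or between Kdr and Aplnr, and every other pair of neighbours in this order overlapped. In young burn the order began with Klf2 at 38.8 ± 1.34 CPM per kb and Cdh5 at 33.2 ± 6.004 (SD, n = 2).

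**Figure D1:**
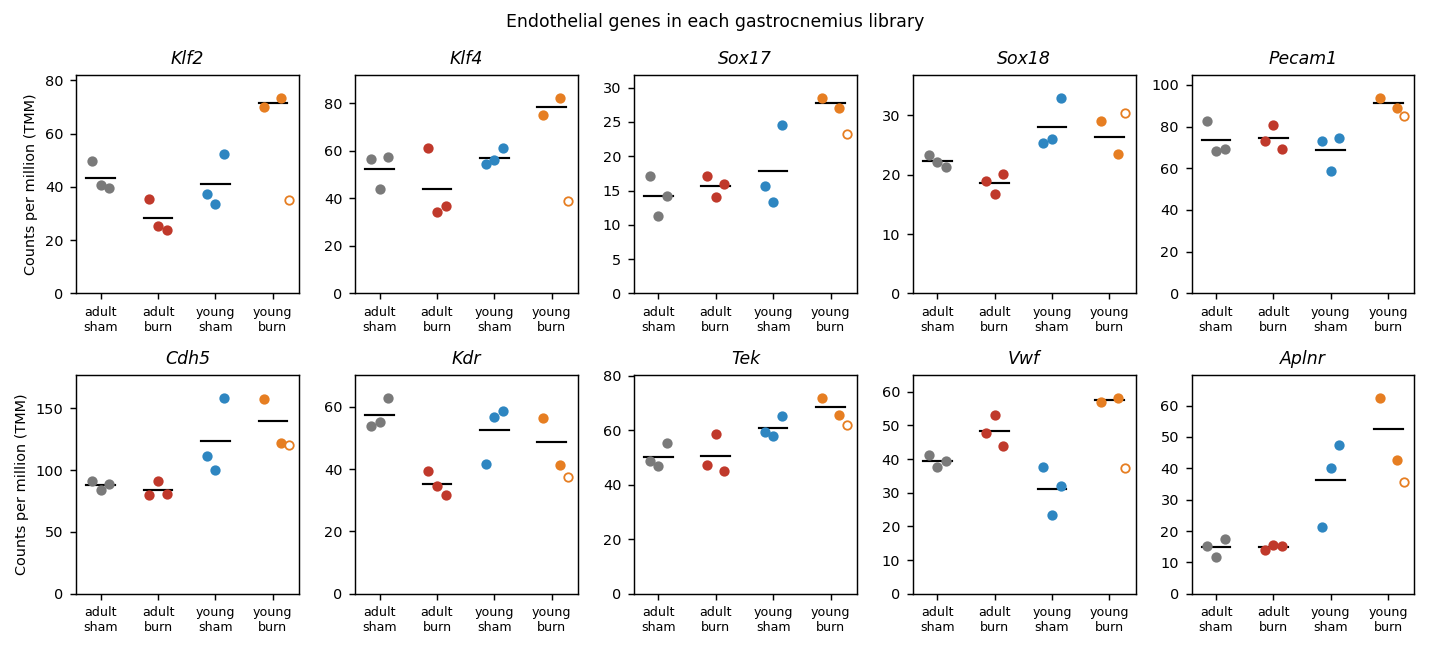
CPM (TMM-scaled counts, linear axis from 0) of each of the 10 endothelial genes in each of the 12 mRNA libraries, by group. Filled points are libraries in the fits, the open point is young burn replicate 2, and the bar is the mean of the filled points. Klf2 is highest in young burn replicates 1 and 3 (69.9 and 73.4 CPM) and lowest in adult burn, and Aplnr stays at or under 17.6 CPM in every adult library.

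Klf2, on chromosome 8 (GRCm38, chr8:72319033-72321656, plus strand), encodes the flow-induced factor at the centre of the comparison between the ages. In adult sham it stood at 49.6, 40.6 and 39.7 CPM, and in adult burn at 35.4, 25.3 and 23.8 CPM. In young sham it stood at 37.3, 33.6 and 52.4 CPM, and in young burn at 69.9 and 73.4 CPM in replicates 1 and 3. The adult burn libraries all lay under the adult sham libraries, and these young burn libraries lay above every other library. Young burn replicate 2 had 34.9 CPM, within the range of young sham, so the height of Klf2 in young burn rests on 2 of 3 mice. The counts behind these levels ran from 128 to 390 per library.

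Klf4, on chromosome 4 (chr4:55527143-55532466, minus strand), encodes a close relative of KLF2 that is induced by flow as well. Its level was 56.5, 43.7 and 57.3 CPM in adult sham, 61.2, 34.3 and 36.6 CPM in adult burn, 54.3, 55.9 and 61.2 CPM in young sham, and 74.9 and 82.2 CPM in young burn. Young burn replicate 2 held 38.7 CPM, under all young sham libraries. The adult groups overlapped, since adult burn replicate 1 was above all 3 adult sham libraries. Across the 11 libraries the log2 levels of Klf2 and Klf4 had a Pearson correlation of 0.885, a value that the group differences and the shared libraries enter.

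The RefSeq promoter table (GRCm38.p6) held 4 of the 10 genes, Klf2, Klf4, Kdr and Tek. The 150 bases before the most upstream annotated start of the flow-induced pair are shown because Klf2 is the only gene of the set with a called difference between the burn responses of the ages. Capitals mark matches on either strand to the MEF2 consensus, the GC box GGGCGG and AGGAA, a form of the ETS site, which do not overlap one another in these windows. The shorter ETS core GGAA was not searched, so ETS sites of other forms can lie unmarked in the windows shown.
Klf2 (chr8:72318883-72319032, plus strand): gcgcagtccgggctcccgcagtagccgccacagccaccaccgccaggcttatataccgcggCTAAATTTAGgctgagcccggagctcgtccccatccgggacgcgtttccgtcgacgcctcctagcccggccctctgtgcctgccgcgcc
Klf4 (chr4:55532476-55532625, minus strand): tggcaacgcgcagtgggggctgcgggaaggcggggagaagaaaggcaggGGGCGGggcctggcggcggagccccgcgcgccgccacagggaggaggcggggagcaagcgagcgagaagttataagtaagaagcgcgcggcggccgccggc
The Klf2 window held 1 match to the MEF2 consensus, 80 to 89 bases before the start, and MEF2 factors are known to act in the induction of Klf2 by flow. Of the 32851 promoters in the table, 1.67% hold such a match in the 150 bases before their RefSeq start. The Klf4 window held 1 GC box, a sequence found in 28.6% of these windows. Both windows were rich in G and C, at 69.3% and 74.0% of bases. The other 6 genes, Sox17, Sox18, Pecam1, Cdh5, Vwf and Aplnr, had no entry.

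Sox17, on chromosome 1 (chr1:4490931-4497354, minus strand), a factor of arterial identity, was at 17.2, 11.3 and 14.2 CPM in adult sham and 17.1, 14.1 and 15.96 CPM in adult burn. In young sham it was at 15.6, 13.4 and 24.6 CPM and in young burn at 28.5 and 27.0 CPM, with 23.2 CPM in young burn replicate 2. All 3 young burn libraries lay above every adult library, and young sham replicate 3 lay among them. The annotated gene Gm37587 lies on the opposite strand across exons of Sox17, and since no source used here states the strand that was counted, its reads cannot be told apart from those of Sox17. Sox18, on chromosome 2 (chr2:181669836-181671640, minus strand), acts in the growth of blood and lymphatic vessels. It was at 23.4, 22.2 and 21.2 CPM in adult sham and lower in each adult burn library, at 19.0, 16.8 and 20.1 CPM. The young libraries held more, with 25.3, 25.9 and 32.9 CPM in young sham and 29.0 and 23.5 CPM in young burn. For Sox18, young burn replicate 2 was the highest of its group at 30.3 CPM.

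The junction genes followed. Pecam1, on chromosome 11 (chr11:106654217-106750628, minus strand), encodes an adhesion protein of endothelial cells, platelets and some leukocytes. It was at 82.7, 68.2 and 69.4 CPM in adult sham, 73.3, 80.8 and 69.4 CPM in adult burn and 73.1, 58.7 and 74.4 CPM in young sham. These 3 groups overlapped, and the young burn libraries were higher, at 93.7, 85.1 and 88.9 CPM with replicate 2 included. Cdh5, on chromosome 8 (chr8:104101625-104144511, plus strand), encodes VE-cadherin, the cadherin of the endothelial junction. It was at 91.4, 84.1 and 88.5 CPM in adult sham and 79.5, 91.3 and 80.8 CPM in adult burn. Every young library was above every adult library, with 111.5, 100.5 and 158.2 CPM in young sham and 157.5, 120.7 and 121.8 CPM in young burn.

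Kdr, on chromosome 5 (chr5:75932827-75978458, minus strand), encodes VEGFR2, the main receptor through which VEGF-A acts on endothelial cells. It was at 53.8, 55.3 and 62.8 CPM in adult sham and at 39.6, 34.5 and 31.7 CPM in adult burn, without overlap. In young sham it was at 41.7, 56.9 and 58.8 CPM, and in young burn at 56.4 and 41.3 CPM, with 37.6 CPM in replicate 2. The young groups overlapped. Tek, on chromosome 4 (chr4:94739289-94874976, plus strand), encodes the angiopoietin receptor TIE2. It was at 48.8, 46.9 and 55.2 CPM in adult sham and 47.3, 58.6 and 45.1 CPM in adult burn, against 59.2, 57.7 and 65.3 CPM in young sham and 71.7 and 65.4 CPM in young burn. The sham and burn libraries of the adults overlapped, and adult burn replicate 2 exceeded the lowest young library. Young burn replicate 2 held 61.7 CPM.

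The promoters of both receptors are shown because Kdr was called with burn in adults and Tek was not, with the same motifs in capitals. That contrast is no test of a difference between the genes, and the part of the motifs in their levels was not tested.
Kdr (chr5:75978459-75978608, minus strand): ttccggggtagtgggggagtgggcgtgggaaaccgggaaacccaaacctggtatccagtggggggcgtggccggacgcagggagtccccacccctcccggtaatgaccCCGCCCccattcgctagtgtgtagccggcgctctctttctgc
Tek (chr4:94739139-94739288, plus strand): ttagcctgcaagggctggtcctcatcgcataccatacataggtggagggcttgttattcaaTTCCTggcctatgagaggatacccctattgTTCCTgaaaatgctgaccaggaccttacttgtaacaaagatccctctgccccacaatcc
The Kdr window held 1 GC box, 37 to 42 bases before the start. The Tek window held 2 matches to AGGAA, a sequence found in 42.1% of windows, and other forms of the ETS site were not searched in either. Tek had the lowest share of G and C of the promoters shown, at 48.7% against 66.7% in Kdr.

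Aplnr, on chromosome 2 (chr2:85136225-85139923, plus strand), encodes the receptor of apelin, a peptide that acts in the growth of vessels. It was at 15.1, 11.8 and 17.6 CPM in adult sham and at 13.9, 15.5 and 15.2 CPM in adult burn. In young sham it was at 21.2, 40.1 and 47.5 CPM and in young burn at 62.4, 35.6 and 42.7 CPM. Every young library exceeded every adult library, and the young libraries were spread the widest. Vwf, on chromosome 6 (chr6:125546774-125686679, plus strand), encodes von Willebrand factor, which platelets bind at a wound and which endothelial cells and megakaryocytes make. It was at 41.2, 37.6 and 39.5 CPM in adult sham and 47.6, 53.1 and 44.0 CPM in adult burn. In young sham it was at 37.8, 23.5 and 31.9 CPM, and in young burn at 56.8 and 58.0 CPM. Vwf was above every sham library in all adult burn libraries and in young burn replicates 1 and 3, whereas young burn replicate 2, with 37.3 CPM, lay within young sham.

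The first comparison asks how the endothelial genes differ between the ages without injury. In young sham, Aplnr was 2.43-fold higher than in adult sham (log2 fold change 1.28, SE 0.25, adjusted p = 0.00469), and it was the only gene of the set that was called, with 3 of 3 young sham libraries above all adult sham libraries. Of all genes tested 11.8% were called in this comparison, 5.27% higher and 6.49% lower in young. Cdh5 was close to the threshold (log2 fold change 0.48, SE 0.15, adjusted p = 0.0510), and the other 8 genes had log2 fold changes between -0.36 for Vwf and 0.32 for Sox18. The call of Aplnr held with all 12 libraries (adjusted p = 0.0236), where 3.76% of genes were called, and when each library was left out in turn. The median over the 10 genes was 0.19 against 0.00093 over all genes. Of 30 other genes that most endothelial cells express, 7 were higher and 1 was lower, with a median of 0.39. Cldn5, a tight junction protein, was the highest of them in fold (log2 fold change 1.11), with Adgrl4 and Robo4 at 0.65 each, and Plvap, which forms the diaphragms of fenestrae and caveolae, was the 1 that was lower (-0.73). With 12 libraries 3 of the 30 were called, Plvap (adjusted p = 0.0528) and Robo4 (0.0877) not among them. In whole muscle, more endothelial cells and more RNA per cell cannot be told apart, and this holds for each comparison below.

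The burn response of adult mice came next. Kdr fell to 0.616 of its adult sham level (log2 fold change -0.70, SE 0.15, adjusted p = 0.0374), from 57.3 ± 4.83 to 35.3 ± 3.97 CPM (SD, n = 3 each), and it was the 1 gene of the set that was called, where 0.909% of all genes were. Klf2 had a log2 fold change of -0.62 (SE 0.17, adjusted p = 0.111), and the other 8 genes lay between -0.26 for Sox18 and 0.29 for Vwf, with Tek and Aplnr both near 0. The call of Kdr was lost without any 1 of 5 libraries, namely adult burn replicates 2 and 3 and adult sham replicates 1, 2 and 3, with adjusted p from 0.0736 to 0.149. It was lost with all 12 mRNA libraries as well (log2 fold change -0.70, adjusted p = 0.543), where 0.00806% of genes were called. DESeq2 on 11 libraries gave Kdr an adjusted p of 0.00531. Of the 30 other endothelial genes Plvap alone was called, and it rose (log2 fold change 0.71, adjusted p = 0.0487), a call lost with all 12 libraries (adjusted p = 0.543). The median over the 10 genes was -0.038 against -0.0037 over all genes.

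In young mice the burn was followed by higher Vwf, at 57.4 ± 0.879 CPM (SD, n = 2) against 31.1 ± 7.17 CPM (SD, n = 3) in young sham. This was a 1.87-fold rise (log2 fold change 0.91, SE 0.15, adjusted p = 0.0220), and Vwf was the 1 gene of the set that was called, where 0.664% of all genes were. Klf2 was 1.76-fold higher and just missed the threshold (log2 fold change 0.82, SE 0.18, adjusted p = 0.0550), and DESeq2 called it (adjusted p = 0.0128). Sox17 at 0.66, Aplnr at 0.55, Klf4 at 0.47 and Pecam1 at 0.43 did not pass the test, and Cdh5, Tek, Sox18 and Kdr lay between -0.09 and 0.19. In the fit to 12 libraries Vwf was at 0.71 (adjusted p = 0.0901) and Klf2 at 0.53 (adjusted p = 0.260), and 0.0645% of genes were called. The call of Vwf was also lost without young burn replicate 1 or 3 or young sham replicate 2 or 3, with adjusted p from 0.0597 to 0.249. Leaving out young burn replicate 1 or 3 leaves 1 young burn library, which is then assumed to vary like the other groups. The median over the 10 genes was 0.45 against 0.0095 over all genes, and none of the 30 other endothelial genes was called by edgeR, with a median of 0.31.

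**Figure D2:**
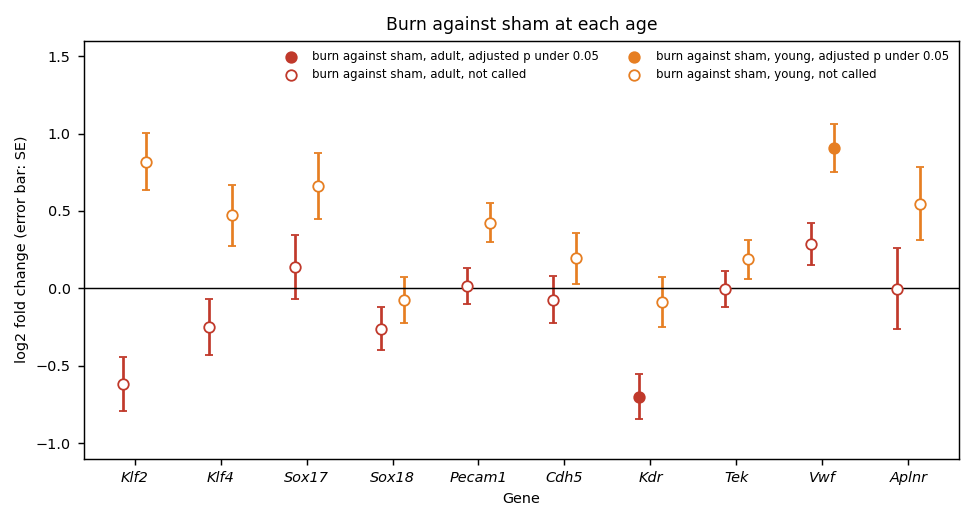
Log2 fold change of burn against sham with its standard error (edgeR, 11 mRNA libraries) for each of the 10 genes, in adult mice (red) and young mice (orange). Filled points passed an adjusted p of 0.05. Klf2 lies at -0.62 in adult and 0.82 in young mice, Kdr is called in adults alone and Vwf in the young alone, a contrast that by itself is no test of a difference between the ages.

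Whether burn acted differently in the ages was tested as the difference between both burn effects. Klf2 was the 1 gene of the set that was called. Its burn effect was higher in young mice by 1.44 on the log2 scale (SE 0.25, adjusted p = 0.0475), a 2.71-fold difference, where 0.0949% of all genes, or 12 in number, were called. For the other 9 genes the difference was above 0 as well, from 0.19 for Sox18 and Tek to 0.72 for Klf4 (adjusted p = 0.353), and none passed. Vwf at 0.62 (adjusted p = 0.308) and Kdr at 0.61 (adjusted p = 0.344) were thus not shown to differ between the ages, although each was called at 1 age. The call of Klf2 was a narrow one. It was lost in 8 of 11 fits that left out 1 library, with adjusted p from 0.0787 to 0.191, and kept without adult burn replicate 1, adult sham replicate 3 or young sham replicate 3. With all 12 libraries the difference was 1.15 (adjusted p = 0.683), and edgeR called 0% of genes and none of the set, with 1 gene of the set and 893 of all genes at an unadjusted p under 0.05. DESeq2 gave Klf2 a difference of 1.43 on 11 libraries, but an adjusted p for 1 of the 10 genes alone (Cdh5, 0.677), so its calls there say nothing of the other 9. On 12 libraries, with an adjusted p for all 10, DESeq2 called none of them and 1 of all genes.

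The largest contrast was that between the burned groups. Young burn was higher than adult burn in all 10 genes, and 7 of them were called, namely Aplnr, Klf2, Klf4, Sox17, Cdh5, Sox18 and Tek. Of all genes tested 20.7% were called, with 11.2% above and 9.54% below adult burn. Aplnr had the largest difference, 3.55-fold (log2 fold change 1.83, SE 0.25, adjusted p = 0.000361), and Klf2 followed at 2.54-fold (1.35, SE 0.18, adjusted p = 0.000361). Klf4 at 0.83, Sox17 at 0.82 and Cdh5 at 0.74 had adjusted p of 0.00862, 0.0138 and 0.00609 in edgeR's test. Sox18 at 0.51 (adjusted p = 0.0276) and Tek at 0.45 (adjusted p = 0.0199) were smaller. Kdr just missed the threshold (0.48, adjusted p = 0.0501), and Pecam1 at 0.30 and Vwf at 0.26 did not pass.

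Only the differences of Aplnr and Klf2 between the burned groups were called in each fit that left out 1 library. Without young burn replicate 1, which leaves 1 young burn library, Sox17, Sox18, Cdh5 and Tek were lost, at log2 fold changes of 0.78, 0.34, 0.54 and 0.38. Without young burn replicate 3, Sox17 was lost at 0.0632, Klf4 at 0.0711 and Tek at 0.0629. Sox18 was lost without adult burn replicate 2 at 0.0902, and Tek without adult burn replicate 1 at 0.0517 or replicate 3 at 0.0814. With all 12 libraries 5 genes were called, Klf4 (0.56, adjusted p = 0.172) and Tek (0.40, adjusted p = 0.0610) no longer among them, where 10.8% of all genes were called. The comparison shares its libraries with both burn comparisons. For Aplnr the log2 fold change between the sham groups was 1.28, beside 1.83 between the burned groups, whereas for Klf2 it was -0.09 beside 1.35. The median over the 10 genes was 0.62 against 0.0076 over all genes. Among the 30 other endothelial genes 17 were higher and 1, Plvap, was lower (-0.58), with a median of 0.61. Myct1 at 1.15, Cd93 at 1.15, Emcn at 1.11 and Adgrl4 at 1.04 were the furthest. Of the 30, 10 were called with all 12 libraries.

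**Figure D3:**
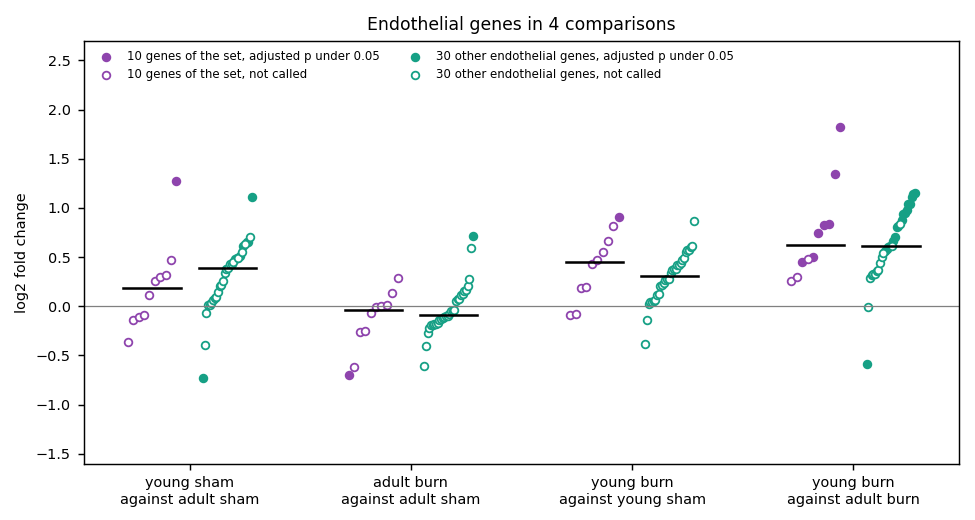
Log2 fold changes (edgeR, 11 mRNA libraries) of the 10 endothelial genes (purple) and of 30 other endothelial genes (green) in 4 comparisons, ordered by size within each. Filled points passed an adjusted p of 0.05 and bars are medians. Both medians lie near 0.6 for young burn against adult burn (0.62 and 0.61) and near 0 for adult burn against adult sham.

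A model with age and burn as terms, which takes 1 burn effect for both ages, called Vwf (log2 fold change 0.56, SE 0.13, adjusted p = 0.0310) and no other gene of the set, where 2.15% of all genes were called. Kdr stood at -0.42 (adjusted p = 0.115). Klf2 stood near 0 in this model (0.06), its values in the 2 ages being of opposite sign. With all 12 libraries Vwf was at 0.50 (adjusted p = 0.101), none of the set was called by edgeR, with 3 genes at an unadjusted p under 0.05, and 0.717% of all genes were called. The call was also lost without adult burn replicate 2, adult sham replicate 3, young burn replicate 1 or 3, or young sham replicate 3, with adjusted p from 0.0533 to 0.120. DESeq2 called Vwf on 11 and on 12 libraries. Among the other endothelial genes, Plvap (0.77) and Clec14a (0.60) were higher with burn in this model.

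The 10 genes were next set beside the mean log2 level of the 30 other endothelial genes in the same library, as a description. That mean was 4.49 to 4.64 log2 CPM in adult sham, 4.51 to 4.53 in adult burn, 4.73 to 5.08 in young sham and 5.04 to 5.23 in young burn, with 4.77 in young burn replicate 2. It was thus higher in the young, whereas burn left it within 0.03 of the sham mean in adults. Klf2 lay 0.90 above the mean of the 30 genes in adult sham and 0.29 above it in adult burn, the library values being 0.81 to 1.01 and 0.06 to 0.63. In the young it lay 0.50 above the mean in sham (0.36 to 0.64) and 1.03 above it in burn (0.90 and 1.16), with 0.37 in young burn replicate 2. Kdr went from 1.30 above the mean (1.124 to 1.472) in adult sham to 0.63 (0.47 to 0.79) in adult burn, without overlap, and in the young from 0.86 (0.66 to 1.11) to 0.47 (0.34 and 0.60, with 0.48 in young burn replicate 2), again without overlap. Relative to that mean Sox18 was lower in burn as well, at -0.04 (-0.076 to 0.0054) in adult sham against -0.28 (-0.41 to -0.18) in adult burn. In the young it was at -0.03 (-0.049 to -0.014) in sham against -0.41 (-0.46 and -0.35) in burn. For Sox18, young burn replicate 2 went the other way, to 0.17. In the young, the log2 fold changes of Kdr and Sox18 themselves were -0.09 and -0.08 (edgeR, adjusted p = 0.844 and 0.853). The group mean of the 30 genes went from 4.85 in young sham to 5.14 in young burn, so these lower values are largely those of the mean. How often sham and burn libraries of other genes separate in this way was not computed. Vwf went from 0.77 (0.74 to 0.81) to 1.08 (0.94 to 1.23) in adults, and from 0.10 (-0.15 to 0.52) in young sham to 0.72 (0.61 and 0.83) in young burn, with 0.46 in young burn replicate 2, within the young sham range. Sox17 overlapped in adults and was higher in young burn (-0.38 and -0.27, with -0.21 in replicate 2) than in young sham (-0.95 to -0.44). For Klf4, Pecam1, Cdh5, Tek and Aplnr the sham and burn libraries overlapped at both ages. Tek stayed between 0.94 and 1.37 above their mean, and Cdh5 between 1.79 and 2.23, in all 11 libraries.

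**Figure D4:**
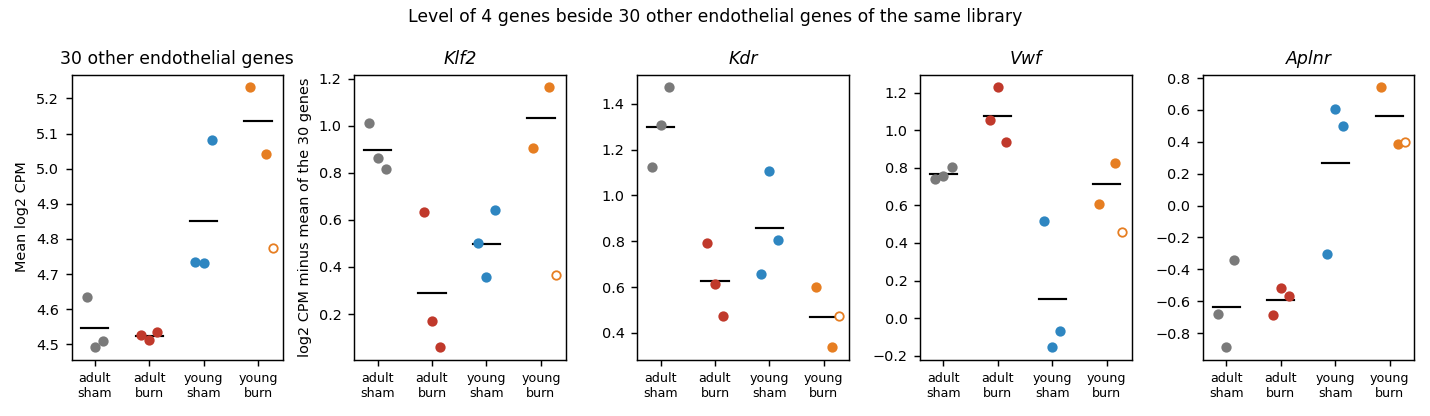
Left panel, mean log2 CPM of 30 other endothelial genes in each mRNA library. Other panels, log2 CPM of Klf2, Kdr, Vwf and Aplnr minus that mean in the same library. Filled points are the libraries in the fits, the open point is young burn replicate 2 and bars are means of the filled points. Axes differ between panels and do not start at 0. Klf2 and Kdr lie lower in adult burn than in adult sham relative to the 30 genes, and Aplnr lies higher in the young (0.27 in young sham against -0.64 in adult sham).

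The ligands and partner receptors of KDR, TEK and APLNR showed few calls with burn. Of 14 tested VEGF, angiopoietin and apelin genes none was called after burn at either age by edgeR. Vegfa, the main ligand of KDR, stood at -0.49 in adults (adjusted p = 0.217) and -0.32 in the young (adjusted p = 0.447). Between the burned groups, where 20.7% of all genes were called, 4 were higher in the young and 1 was lower. With 12 libraries 2 of the 14 were called, where 10.8% of all genes were. Apln, which encodes the ligand of APLNR, had the largest difference (2.25, adjusted p = 0.0259), at 4.29 and 4.30 CPM in young burn against 0.362 to 1.68 CPM in adult burn, from 45 and 15 counts in all. The VEGF co-receptors Nrp1 at 0.62 and Nrp2 at 0.66 were higher too, as was the orphan receptor Tie1 at 0.61, and Vegfd was lower (-0.93). Apln missed the threshold with young burn replicate 2 included (1.94, adjusted p = 0.0838). Between the sham groups, where 11.8% of all genes were called, Angptl4 was higher in the young (2.47) and Vegfb was lower (-0.49, adjusted p = 0.131 with 12 libraries).

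Of 10 tested genes linked to flow and to KLF2 or KLF4, none was called after burn at either age by edgeR, with medians of -0.017 in adults and 0.20 in the young. Timp3, an inhibitor of matrix proteases, was lower in the young both between sham groups (-1.19) and between burned groups (-0.59, adjusted p = 0.0866 with 12 libraries). Aqp1 and Asb2 were the most abundant of the list, and some of its genes are expressed in muscle fibres too. The list was not sorted by whether flow raises or lowers a gene, so its median does not tell whether flow targets followed Klf2. Of 14 arterial genes tested, 3 were higher in young burn than in adult burn, a share close to the 20.7% of all genes called there, namely the Notch ligand Dll4 (0.97), the Notch target Hey1 (0.83) and the matrix gene Fbln5 (0.53). Hey1 was not called with 12 libraries (adjusted p = 0.115). Dll4 was also higher (0.73) and Sema3g lower (-0.66) in young sham than in adult sham, where 11.8% of all genes were called. Neither was called with 12 libraries (adjusted p = 0.0993 and 0.104). Of 7 venous genes Ephb4 was higher in young burn (0.55), and Lrg1 was higher in the model with 1 burn effect (0.74), and both calls were lost with 12 libraries (adjusted p = 0.0687 and 0.0660).

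Among 10 capillary genes, Rgcc rose 2.33-fold in adult burn (log2 fold change 1.22, adjusted p = 0.0259), with 162.1 to 326.1 CPM against 71.7 to 116.8 CPM in adult sham. With 12 libraries its adjusted p was 0.480, at a log2 fold change of 1.22. It was lower in young burn than in adult burn (-1.83), where Aqp7 (0.87), Car4 (0.77) and Meox2 (0.73) were higher. Of these 4 differences between the burned groups, where 20.7% of all genes were called, those of Rgcc and Aqp7 were called with 12 libraries (10.8% of all genes). Car4 and Fabp4 were higher in young sham than in adult sham, by 0.90 and 0.60, where 11.8% of all genes were called. Neither was called with 12 libraries (adjusted p = 0.0631 and 0.0812). None of 7 tested endothelial activation genes, Nfkbia and Il1r1 being the most abundant, was called in any of the 4 comparisons by edgeR, with medians of 0.31 in adult burn and 0.30 in young burn against their shams.

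Other cell types were checked beside these results. Among 9 tested pericyte and smooth muscle genes, Rgs5 (0.81), Pdgfrb (0.67), Cspg4 (0.50) and Kcnj8 (0.42) were higher in young burn than in adult burn, where 20.7% of all genes were called. The summed level of the list was 1393 and 1495 CPM in young burn against 932.9 to 992.7 CPM in adult burn, with 1083 CPM in young burn replicate 2. Rgs5 and Pdgfrb were called with 12 libraries, where 10.8% of all genes were, and Cspg4 and Kcnj8 were not. The sum was 1115 to 1170 CPM in adult sham, above all adult burn libraries, and 1209 to 1382 CPM in young sham. After burn in adults 0 of the 9 were above 0 (median -0.28), and in the young 7 were (median 0.23), with none called at either age. Between the sham groups, where 11.8% of all genes were called, Pdgfrb was higher (0.41, adjusted p = 0.0565 with 12 libraries) and Myh11 lower (-0.63) in the young. Among 8 macrophage genes, C1qa (1.24), C1qb (1.10) and C1qc (1.07) rose in young burn, where 0.664% of all genes were called. The summed level of the list was 363.6 and 604.8 CPM against 211.4 to 283.7 CPM in young sham, with 421.8 CPM in young burn replicate 2. With 12 libraries all 3 calls were lost (adjusted p from 0.0572 to 0.0648, log2 fold changes 1.08, 0.999 and 0.986). Of the macrophage genes 5 were higher in young burn than in adult burn with 11 and with 12 libraries, where 20.7% and 10.8% of all genes were called. After burn in adults all 8 were above 0 (median 0.38) and none was called. Their sum was 256.4 to 343.3 CPM in adult burn against 200.8 to 240 CPM in adult sham. The model with 1 burn effect called 5 of the 8, against 2 with 12 libraries, beside 2.15% and 0.717% of all genes. Among 7 lymphatic genes Lyve1 alone was called after burn in the young (0.92), where 0.664% of all genes were. Prox1 alone was called between the burned groups, higher in the young (1.16), where 20.7% of all genes were called. The list did not move together after burn in the young. There 4 of the 7 were above 0 (median 0.13), and 3 with 12 libraries (median -0.060). Lyve1 is found on some macrophages too. Of 6 platelet genes 2 were tested, and Pf4 was higher in the model with 1 burn effect (0.80), in which Vwf was called. The platelet genes summed to 18.2 to 28.3 CPM in adult sham, 30.2 to 36.8 in adult burn, 25.3 to 30.5 in young sham and 35.8 and 64.0 in young burn, with 60.4 in young burn replicate 2. The part of platelets, pericytes and macrophages in the levels of Vwf and of the other endothelial genes was not tested. No gene of the red blood cell list (5 tested) or of the proliferation list (4 of 8 tested) was called in any of the 4 comparisons by edgeR.

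Of 11 genes of slow and oxidative fibres, 5 fell in adult burn, where 0.909% of all genes were called, among them Myh2 (-1.54), Myl3 (-1.05), Myl2 (-0.95) and Fabp3 (-0.70). With all 12 libraries none of the 11 was called there by edgeR (adjusted p of these 5 from 0.480 to 0.653), and the median over the list was -0.97 in both fits. The list summed to 2776 to 4204 CPM in adult sham and 1566 to 2026 CPM in adult burn, and to 1934 to 2988 CPM in young sham and 3284 and 3617 CPM in young burn. In young burn 1 of the 11, Fabp3, rose against young sham (0.65, adjusted p = 0.472 with 12 libraries), where 0.664% of all genes were called. Against adult burn 6 of the 11 were higher in young burn, where 20.7% of all genes were called. With 12 libraries 2 were, where 10.8% of all genes were called. Between the sham groups, where 11.8% of all genes were called, 1 of the 11 was higher and 2 were lower in the young, and none with 12 libraries. Young burn replicate 2 held 1388 CPM of this list. Myh2 (2.16), Fabp3 (1.35) and Casq2 (0.99) were called beside Klf2 in the test of a difference between the burn effects. Of 6 fast glycolytic genes none was called with burn at either age by edgeR, and Pvalb was higher in young sham (0.82). Of 12 tested immediate early genes, which respond fast to stress and tissue handling, Ier3 rose in young burn (1.11, and 2.12 with an adjusted p of 0.0686 with 12 libraries). Between the burned groups, where 20.7% of all genes were called, Ier2 was higher (0.83) and Atf3 lower (-1.68) in the young. Already between the sham groups 2 of these 12 were lower in the young. In the model with 1 burn effect, which called 2.15% of all genes, 1 was higher with burn. With 12 libraries edgeR called none of the list in either. The part of fibre type and of tissue handling in the levels of Klf2 and Klf4 was not tested.

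The gene with the pattern most like that of Klf2 over the 11 libraries was Jcad, an endothelial junction protein, at a Pearson correlation of 0.940 of log2 levels. Rnf213 (0.933), Rbfox2 (0.933), Tmod3 (0.932) and Gas7 (0.925) followed. For the mean of the correlations with Pecam1, Cdh5, Kdr and Tek, the highest genes were Btbd3 (0.715), Sptbn1 (0.705), Ppt1 (0.694), Gas7 (0.689) and Yes1 (0.685). These values describe libraries that share groups and carry no test. Within the set, Cdh5 and Aplnr had a correlation of 0.900 and Cdh5 and Tek one of 0.897, whereas Kdr and Vwf had one of -0.458.

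The small RNA libraries gave a separate readout of the endothelium in the same mice through mir-126a, an miRNA of endothelial cells whose hairpin (chr2:26591357-26591429, plus strand) lies in an intron of Egfl7 in 8 of the 9 annotated transcripts that span it. Its mature 3p sequence (chr2:26591402-26591423) is shown with the seed, bases 2 to 8, in capitals. The counts are of the hairpin entry and do not separate its arms, and the 5p arm had no entry in the sequence table.
miR-126a-3p: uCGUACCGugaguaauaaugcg
The entry mir-126b, on the opposite strand of the same locus, had 0 counts in all 12 libraries. The entry mir-126a held 43318 to 86994 counts per library. It stood at 23270, 24130 and 23470 CPM in adult sham, 26210, 22080 and 24240 CPM in adult burn, 22480, 23110 and 21970 CPM in young sham and 25270, 26260 and 30190 CPM in young burn. All 3 young burn libraries, replicate 2 included, lay above all young sham libraries.

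The log2 fold change of mir-126a with burn was 0.27 in the young (SE 0.11, adjusted p = 0.270) and 0.03 in adults (SE 0.11, adjusted p = 0.899), and the difference between these was 0.24 (SE 0.15, adjusted p = 0.592). It was -0.07 between the sham groups (adjusted p = 0.607) and 0.17 between the burned groups (adjusted p = 0.183). With TMM scaling edgeR thus did not call mir-126a in any comparison. For burn in the young its unadjusted p in edgeR's test was 0.0187. DESeq2 gave 0.31 there (adjusted p = 0.0806). The study reports mir-126a as upregulated by burn in the young, in the same direction, a call that neither test made here. Of 299 miRNA entries tested by edgeR, 56.2% were called between the sham groups and 55.2% between the burned groups, against 0% with burn at either age and 0% in the test of the difference between the ages. At an unadjusted p under 0.05 there were 23 entries for burn in adults, 37 in the young and 36 for the difference, and DESeq2 called 1, 0 and 2. The host gene Egfl7 was higher in young mice, at 65.5 to 95.8 CPM in young sham against 45.8 to 64.7 CPM in adult sham (log2 fold change 0.51, adjusted p = 0.0487, and 0.148 with 12 libraries), and between the burned groups its log2 fold change was 0.98 (adjusted p = 0.00154). Scaling by the library total in place of TMM put mir-126a at 0.45 between the sham groups and 0.52 between the burned groups, since it moved the median of all miRNAs by 0.50 and 0.34. Of 18 entries of endothelial and mural miRNAs 17 were tested. Between the sham groups, where 56.2% of all entries were called, 5 of the 17 were lower in the young and 0 higher. Among these 5 were mir-27a (-0.84), mir-145a (-0.74) and mir-143 (-0.37). With library totals 7 were higher and 1 was lower. Between the burned groups, where 55.2% of all entries were called, 2 of the 17 were higher and 3 lower in the young. None was called with burn at either age. For the difference between the ages edgeR called none either, whereas DESeq2 called mir-145a (0.68, adjusted p = 0.0278). The edgeR test gave mir-145a 0.59 there (adjusted p = 0.247).

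**Figure D5:**
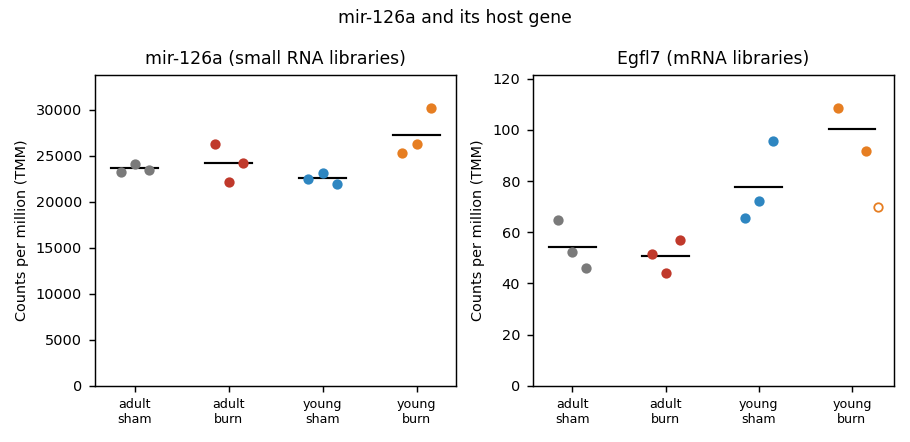
Left, CPM of mir-126a in the 12 small RNA libraries. Right, CPM of its host gene Egfl7 in the 12 mRNA libraries, with young burn replicate 2 as an open point. Both axes are linear from 0 and TMM-scaled, and bars are means of the filled points. mir-126a lies between 21970 and 30190 CPM in all groups, whereas Egfl7 is higher in the young.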

How the data were processed

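Gastrocnemius of 12 mice was profiled as 12 mRNA and 12 small RNA libraries. For mRNA the authors ran STAR on GRCm38 and took its GeneCounts output for the genes of Gencode M25; miRNA reads were trimmed with mirDeep2, mapped with STAR and counted with featureCounts. By the submitters' processing notes STAR was version 2.7.5c and featureCounts version 2.0.1. The deposited values are raw counts, neither normalized nor filtered, and no source used here states the strand that was counted. No 2 libraries held identical values. Nothing states that mice of a group came from separate cages or litters, and p-values measure the spread between these mice.

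Symbols, positions and exon lengths came from Gencode M21 (GRCm38), joined on Ensembl identifiers without version, which matched 55141 of 55401 genes, and sequences from RefSeq tables on GRCm38.p6. Fits used edgeR 4.0.16 under R 4.3.3: TMM scaling, filterByExpr (minimum count 10, minimum total 15), a mean per group, two-sided quasi-likelihood tests and Benjamini-Hochberg adjustment. The filter kept 12651 genes in 11 libraries, 12408 in 12, and 299 miRNA entries. Standard errors are the absolute log2 fold change over the root of F. Log2 levels used a prior count of 2. The model with age and burn follows the study. DESeq2 1.42.0, other scalings, no filter, a replicate block, the compared groups alone and each library left out were alternatives. Scripts were tested on simulated data.

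The 10 genes and all gene lists were chosen with earlier results of these data known. Named from each list were the called genes, up to the 4 with the largest fold change, or else up to 2 of the highest level; genes named outside this rule (Egfl7, Vegfa and Gm37587) were chosen after their values were seen. Sdpr was not matched.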

Additional observations from a re-analysis of the deposited data

Results flagged for a closer look

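The burn effect differed between young and adult mice, by edgeR's test of the difference with adjustment over all genes, for Klf2 and for 3 fibre genes named above. For Klf2 the difference was 1.44 on the log2 scale (adjusted p = 0.0475). In the values behind this call, Klf2 was lower in 3 of 3 adult burn libraries than in any adult sham library. It was higher in the 2 young burn libraries of the fit than in any young sham library. Young burn replicate 2, left out of the fit, lay within young sham at 34.9 CPM. How often other genes separate in this way was not computed. For Myh2, the myosin of fast oxidative fibres, the difference was 2.16 (adjusted p = 0.0127). For Fabp3, a fatty acid carrier of muscle, it was 1.35 (adjusted p = 0.00724), and for Casq2, the calsequestrin of slow and cardiac muscle, 0.99 (adjusted p = 0.0341). All 4 missed the threshold with all 12 libraries, at differences of 1.15, 1.81, 1.03 and 0.78 and an adjusted p of 0.683 each. Single values within groups of 3 were not tested for standing apart, and young burn replicate 2 is described above by its correlation over genes.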

How the results depend on the processing

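With all 12 mRNA libraries edgeR called none of the 10 genes after burn in adults (0), after burn in the young (0), for the difference between the ages (0) or in the model with 1 burn effect (0), against 1 in each with 11 libraries. The replicate numbers did not pair the mice, with correlations of deviations between same-numbered libraries from -0.170 to 0.13, and 5 of 11 libraries correlated best with their own number. A replicate block also gave 0 in these 4 comparisons, where it called 0.569%, 0.0553%, 0.0316% and 1.36% of all genes. DESeq2 called 2 genes between the sham groups (9.43% of all genes) and 2 after burn in the young (1.52%). On all 12 libraries it called 0 after burn in adults (0.0887%) and 0 for the difference (0.00806%). There it called 1 gene after burn in the young (3.48%) and 1 in the model with 1 burn effect (3.09%). For the difference on 11 libraries DESeq2 gave an adjusted p for 1 of the 10 genes, so no count is given. Library totals gave 2 between the sham groups (14.1% of all genes), 0 after burn in adults (0.53%) and 4 in the young (2.79%), and they moved the median of all genes by -0.13 for the first and 0.16 for the last of these and by 0.165 for the difference. Without a filter on low counts the calls were 2 between the sham groups (6.73% of all genes), 2 after burn in adults (2%), 5 in the young (2.11%), 2 for the difference (0.859%) and 2 in the model with 1 burn effect (2.85%). Fitting only the compared groups gave 0 after burn in the young (0.399%). Leaving out each library of the groups compared gave 1 to 3 calls for young sham against adult sham, where 4.49% to 14.1% of all genes were called. It gave 0 to 2 for adult burn against adult sham (0.199% to 1.28%) and 0 to 1 for young burn against young sham (0.0558% to 1.61%). Between the burned groups it gave 6 to 7 (13.7% to 20.6%). For the difference it gave 0 to 2 (0.0318% to 0.247%), and in the model with 1 burn effect 0 to 2 (0.744% to 3.12%). Leaving out a library of another group gave up to 2 after burn in the young (without adult burn replicate 1, where 0.597% of all genes were called). Between the burned groups it gave up to 8 (without young sham replicate 1, where 22.5% were called). Leaving out a young burn library left 1 in that group, and those fits, in which calls named above were lost, are not in these ranges.

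Some fold changes near 0 changed sign. Library totals gave Klf4 -0.0272 between the sham groups and gave Sox18 0.0837 and Kdr 0.0674 after burn in the young. After burn in adults Tek was 0.00061 with all 12 libraries, 0.00081 with DESeq2, 0.00083 with RLE scaling and 0.00257 without a filter. Aplnr there was 0.0031, 0.0045, 0.0018 and 0.0043 in the same order, 0.00034 with DESeq2 on all 12 libraries and 0.00081 with the block. Over the fits that left out 1 library of the groups compared, Klf2 ran from -0.29 to 0.0418 and Kdr from -0.21 to 0.00020 between the sham groups. After burn in adults Pecam1 ran from -0.0406 to 0.12, Tek from -0.12 to 0.0710 and Aplnr from -0.14 to 0.14, and after burn in the young Sox18 ran from -0.24 to 0.0651, Cdh5 from -0.0034 to 0.40 and Kdr from -0.33 to 0.12. After burn in adults mir-126a ran from -0.0256 to 0.052 and was -0.0188 with DESeq2. With library totals it was 0.45 between the sham groups and 0.52 between the burned groups, past the threshold in both.

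Over all genes, edgeR called 1488 between the sham groups, 115 and 84 after burn in adults and the young, 2623 between the burned groups, 12 for the difference and 272 in the model with 1 burn effect. With all 12 libraries these were 467, 1, 8, 1343, 0 and 89, and with DESeq2 on 11 libraries 1193, 216, 192, 1958, 53 and 407. Young burn rested on 2 mRNA libraries, and the cause of its lost calls was not tested.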
